A study of Mus musculus with 10 samples.

Results

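The IRAK, TRAF6 and TAK1 signalling complex carries the signal of Toll-like receptors and of the interleukin-1 receptor from the membrane to NF-kappaB and the MAP kinases. Its 10 genes were taken by name from the 54532 genes of the count table, and all 10 were measured and tested. They include the IRAK family members Irak4, Irak1, Irak2 and Irak3 and the TRAF proteins Traf6 and Traf3. The others are the kinase TAK1 (gene Map3k7) and the TAK1-binding proteins Tab1, Tab2 and Tab3. Hearts of C57BL/6 mice aged 8 weeks were sequenced after either saline injection (5 libraries) or 24 h of stress by lipopolysaccharide, LPS (5 libraries), a cell wall component of Gram-negative bacteria used to model sepsis. RNA came from frozen hearts and each library is numbered as 1 mouse; sex, LPS dose and route were not stated. The title of the study puts TRAF6 at its centre, as the ubiquitin ligase through which the LPS receptor TLR4 acts on the transcription factor TFEB.

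When LPS binds TLR4, the adaptor MyD88 gathers IRAK4, which activates IRAK1 and IRAK2, and these recruit TRAF6. TRAF6 builds ubiquitin chains that TAB2 and TAB3 bind, which brings TAK1 and its activator TAB1 to the IKK kinases of the NF-kappaB pathway and to the kinases above JNK and p38. IRAK3, also called IRAK-M, is an inhibitory member of the family best known from monocytes and macrophages, where it limits repeated responses to LPS. TRAF3 serves the interferon-inducing arm of the receptors and restrains the non-canonical NF-kappaB kinase NIK.

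Saline replicate 5 stood apart from the other saline libraries, so fold changes of the members are given with and without it, and counts and other genes also without it where it moved them by over 1.5 times or changed a call. Total counts were between 14607969 and 17012372 reads per library. Cardiomyocyte markers were abundant in all libraries, with a summed level of 43791 to 53343 CPM over 10 genes, of which 1 rose (2 without saline replicate 5), where CPM are counts scaled to library size. Neutrophil markers summed to 1.29 to 4.01 CPM in saline replicates 1 to 4. Their sum was 23.4 CPM in saline replicate 5 and 14.01 to 40.3 CPM in LPS libraries. Of 4 tested, 2 rose (5 of 5 without saline replicate 5). Ngp, at 0 CPM in saline replicates 1 to 4 and 0.984 CPM in LPS libraries, was tested only without saline replicate 5. S100a8 and Retnlg averaged 0.303 and 0.249 CPM in saline replicates 1 to 4. A gene that passes the filter on low counts only through LPS libraries can hardly do other than rise, so these counts are no added support. Beside these marker counts, 18.9% of all tested genes rose and 21.0% fell (21.0% and 22.9% without saline replicate 5). Endothelial markers fell in 8 of 8 genes. Their sum was 1589.8 to 2061 CPM in saline replicates 1 to 4 and 600.1 to 796 CPM in LPS libraries. Saline replicate 5 was at 1042 CPM. Whether fewer cells of a type or less RNA per cell lie behind such a difference cannot be told apart in whole hearts.

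Of the 10 members, 3 rose (Irak3, Irak2 and Traf6) and 1 fell (Tab1) by edgeR's quasi-likelihood test at an adjusted p under 0.05. Over all 13864 tested genes, 18.9% rose and 21.0% fell, so the 40% of members that passed is near the 39.9% of all genes. The members' median log2 fold change was 0.13, beside -0.02 for all tested genes. Without saline replicate 5, Tab2 joined the rising members, giving 4 rising and 1 falling, against 21.0% and 22.9% of 14123 genes. The members with a rise past 2-fold were the kinase Irak2 and the inhibitor Irak3. Traf6 and Tab1 passed with smaller log2 fold changes, 0.40 and -0.46. The kinases Irak4, Irak1 and Map3k7 had log2 fold changes between -0.17 and 0.14, none past the threshold in this fit.

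**Figure D1:**
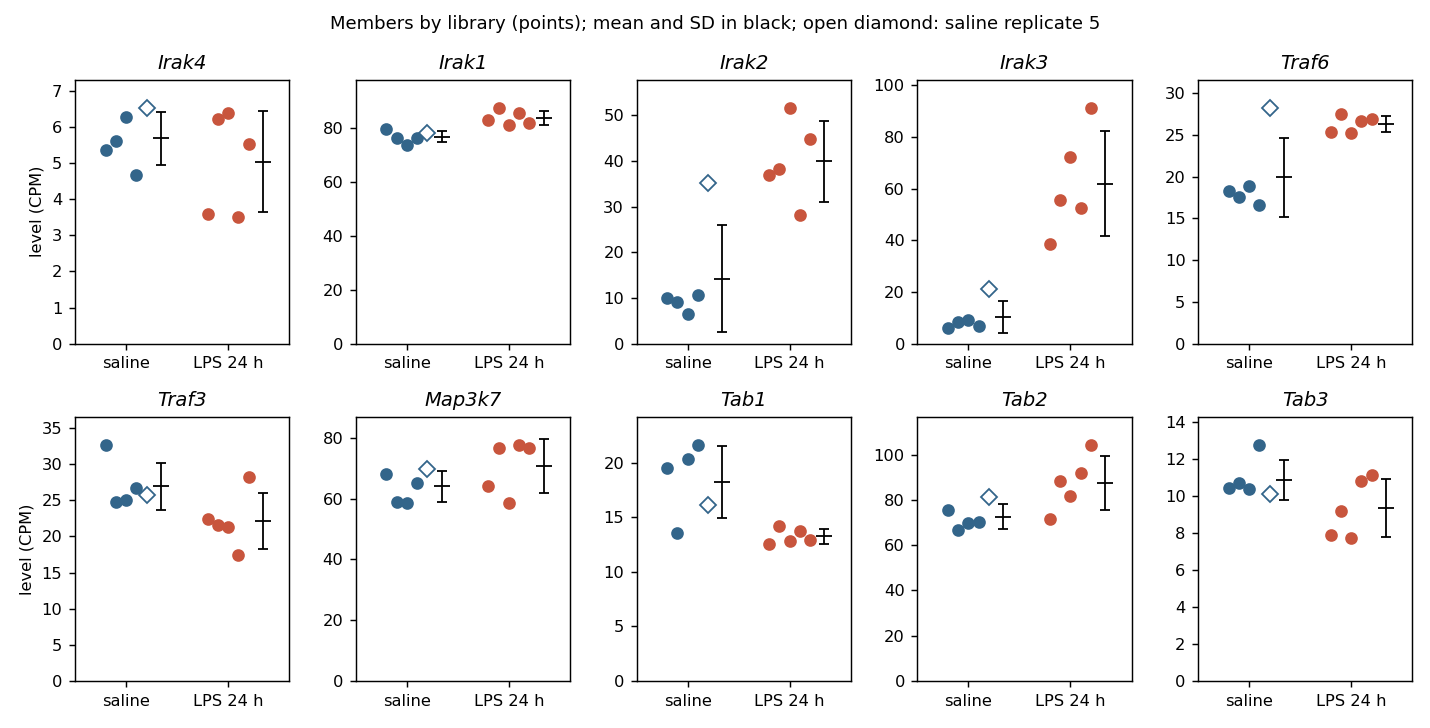
Level of each member (vertical axis, CPM, starting at 0) in the 5 saline and 5 LPS libraries. Points are libraries, black marks the mean and SD, and the open diamond is saline replicate 5, which lies among or above the LPS points for Irak2 (35.1 CPM) and Traf6 (28.2 CPM) and between the groups for Irak3 (21.0 CPM).

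The promoters of the 3 rising members are shown with that of Map3k7, which did not pass the test, because NF-kappaB is the best known transcription factor activated through this complex. The sequences are RefSeq promoters on GRCm38.p6, from 250 bases before to 50 after a start site, 5′ to 3′ on the gene's strand. Capitals mark matches to GGGANNNNCC, a simplified form of the NF-kappaB site, on either strand. Irak2 is chr6:113638217-113638516 on the plus strand. Irak3 has 2 annotated starts on the minus strand, chr10:120201548-120201847 (a) and chr10:120202081-120202380 (b). Traf6 is chr2:101678170-101678469 and Map3k7 is chr4:31963857-31964156, both on the plus strand.
Irak2: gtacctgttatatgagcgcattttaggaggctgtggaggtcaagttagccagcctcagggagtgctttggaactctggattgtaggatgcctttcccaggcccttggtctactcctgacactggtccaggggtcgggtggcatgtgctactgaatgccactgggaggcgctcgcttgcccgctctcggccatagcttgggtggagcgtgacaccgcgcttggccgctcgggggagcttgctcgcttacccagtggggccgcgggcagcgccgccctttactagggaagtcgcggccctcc
Irak3 (a): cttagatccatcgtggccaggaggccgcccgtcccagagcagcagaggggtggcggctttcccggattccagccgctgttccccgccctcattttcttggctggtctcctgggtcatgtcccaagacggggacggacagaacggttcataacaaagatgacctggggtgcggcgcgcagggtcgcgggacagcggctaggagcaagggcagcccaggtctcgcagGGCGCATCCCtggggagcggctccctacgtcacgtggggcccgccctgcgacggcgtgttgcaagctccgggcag
Irak3 (b): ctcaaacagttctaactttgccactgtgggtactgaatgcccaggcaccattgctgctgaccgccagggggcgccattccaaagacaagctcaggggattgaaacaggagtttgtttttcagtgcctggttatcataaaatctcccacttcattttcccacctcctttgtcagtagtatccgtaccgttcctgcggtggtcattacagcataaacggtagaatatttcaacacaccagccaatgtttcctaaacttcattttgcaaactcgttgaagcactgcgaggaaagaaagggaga
Traf6: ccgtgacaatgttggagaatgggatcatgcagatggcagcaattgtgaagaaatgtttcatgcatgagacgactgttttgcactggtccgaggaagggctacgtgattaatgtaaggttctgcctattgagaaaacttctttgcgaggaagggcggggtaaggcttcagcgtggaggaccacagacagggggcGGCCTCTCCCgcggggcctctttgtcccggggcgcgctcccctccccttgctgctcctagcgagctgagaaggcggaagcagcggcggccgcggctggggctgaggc
Map3k7: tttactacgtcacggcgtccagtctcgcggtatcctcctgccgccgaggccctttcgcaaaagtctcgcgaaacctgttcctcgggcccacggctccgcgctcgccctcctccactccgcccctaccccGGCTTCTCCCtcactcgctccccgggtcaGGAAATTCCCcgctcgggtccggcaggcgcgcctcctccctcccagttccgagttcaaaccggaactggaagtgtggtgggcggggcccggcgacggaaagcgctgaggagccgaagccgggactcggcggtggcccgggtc

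A match was present in 4 of the 9 members with a promoter entry (Irak1, Irak3, Traf6 and Map3k7) and in 5 of their 12 entries, with 1 site of Irak1 counted in both of its entries, whose starts lie 3 bases apart, while 20.7% of all 32851 promoters of the same length held one. In Irak3 (a) the match GGCGCATCCC lay 25 to 16 bases before the start, and in Traf6 GGCCTCTCCC lay 57 to 48 bases before it. Irak2, which rose, held no match in this window. Map3k7, which did not pass the test, held 2 matches without overlap, among them GGAAATTCCC, 92 to 83 bases before the start. The interferon response core GAAANNGAAA and the AP-1 core TGANTCA were in 0 of the 12 entries, against 3.44% and 7.81% of all promoters, and the C/EBP core TTGCNNAA was in 2 (Map3k7 and Irak3 (b)), against 10.8%, all on either strand. These are matches of letters and do not show binding. The strings are simplified, so they can miss other forms of a site, and an entry without a match may still hold one.

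Irak3, the inhibitory member of the IRAK family (ENSMUSG00000020227, GRCm38 chromosome 10, 120141648 to 120202130, minus strand), had the largest change among the members. It was at 6.16, 8.53, 9.03, 6.95 and 21.0 CPM in saline replicates 1 to 5 and at 38.5, 55.5, 72.1, 52.7 and 91.3 CPM in LPS replicates 1 to 5. Every LPS library lay above every saline library, and saline replicate 5 lay between the groups. Mean Irak3 rose from 10.3 ± 6.09 to 61.99 ± 20.3 CPM (n = 5 per group, SD), 6.01-fold with a 95% interval of 3.26 to 11.1 (log2 fold change 2.59 ± 0.39 SE, adjusted p = 0.000713, edgeR). With saline replicate 5 left out, the log2 fold change was 3.02 ± 0.25 (adjusted p = 1.21e-06). Irak3 shares 192 of its 3676 exon bases with Tmbim4 on the other strand, whose mean was 33.3 CPM after saline and 40.6 CPM after LPS. The strand setting of the counting is unknown.

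Irak2, a kinase that keeps TRAF6 signalling going in later phases (ENSMUSG00000060477, chromosome 6, 113638467 to 113695026, plus strand), also rose. Its levels were 9.96, 9.14, 6.45, 10.6 and 35.1 CPM in saline replicates 1 to 5 and 36.8, 38.3, 51.6, 28.1 and 44.9 CPM in LPS replicates 1 to 5. Saline replicate 5 lay within the range of the LPS libraries, and the other saline libraries lay below all of them. The change was from 14.2 ± 11.7 to 39.9 ± 8.84 CPM (SD, n = 5 per group), 2.81-fold with a 95% interval of 1.35 to 5.84 (log2 fold change 1.49 ± 0.46 SE, adjusted p = 0.0311, edgeR). Without saline replicate 5 it was 4.43-fold (log2 fold change 2.15 ± 0.18, adjusted p = 2.65e-07). Leaving out saline replicate 1, 2, 3 or 4, or LPS replicate 1, 2, 3 or 5, ended the call (adjusted p 0.0516 to 0.0739), and saline replicate 5 was kept in each of these fits.

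Irak1, the kinase that joins the receptor complex to TRAF6 (ENSMUSG00000031392, chromosome X, 74013914 to 74023918, minus strand), was the steadiest member. It was at 79.4, 76.1, 73.6, 76.2 and 78.1 CPM in saline replicates 1 to 5 and at 83.0, 87.3, 80.9, 85.3 and 81.8 CPM in LPS replicates 1 to 5. The LPS libraries all lay above the saline libraries, but by little, and the change did not pass the test (log2 fold change 0.13, 95% interval -0.03 to 0.28, adjusted p = 0.183, edgeR), nor without saline replicate 5 (0.14, adjusted p = 0.193). The direction of the change depended on scaling, since the log2 fold change was -0.15 with total count scaling and -0.03 with upper quartile scaling. It was positive in the other alternative fits, and passed with DESeq2 (adjusted p = 0.0386). Whether the libraries of the groups stay separate under other scalings was not tested. Irak3 and Irak1 were the 2 members whose LPS libraries all lay above the saline ones, as in 14.3% of tested genes, and 0 members had all LPS libraries below, as in 14.1%.

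Irak4, the kinase that starts the cascade (ENSMUSG00000059883, chromosome 15, 94543643 to 94581815, plus strand), was the scarcest member, with 43 to 112 reads per library. It was at 4.69 to 6.54 CPM in saline and 3.52 to 6.39 CPM in LPS libraries, and the groups overlapped. The log2 fold change was -0.17 with a 95% interval of -0.59 to 0.25 (adjusted p = 0.527, edgeR) and -0.11 without saline replicate 5 (adjusted p = 0.692), so changes of that size in either direction were not resolved at this depth. Irak4 shares 395 of its 5021 exon bases with Twf1 on the other strand, which had 3352 reads in all beside 862 for Irak4.

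The make-up of the IRAK transcripts differed between the groups. Shares of the summed level per kilobase of gene length within a library do not depend on how libraries are scaled. Irak1 made up 75.6% ± 1.09 of the IRAK level in saline replicates 1 to 4 (SD, n = 4), 52.5% in saline replicate 5 and 40.5% ± 6.73 in LPS libraries (n = 5). Irak3 made up 9.76% ± 1.86, 18.2% and 37.0% ± 6.69 in the same order, and all LPS libraries, from 28.2% to 46.5%, lay above all saline ones. Irak2 made up 9.54% ± 1.80, 25.2% and 20.2% ± 2.92, with saline replicate 5 above every LPS library. The ratio of Irak3 to Irak4 was 1.91 ± 0.231, 4.40 and 17.04 ± 4.30. These shares and ratios are descriptions with no test.

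**Figure D2:**
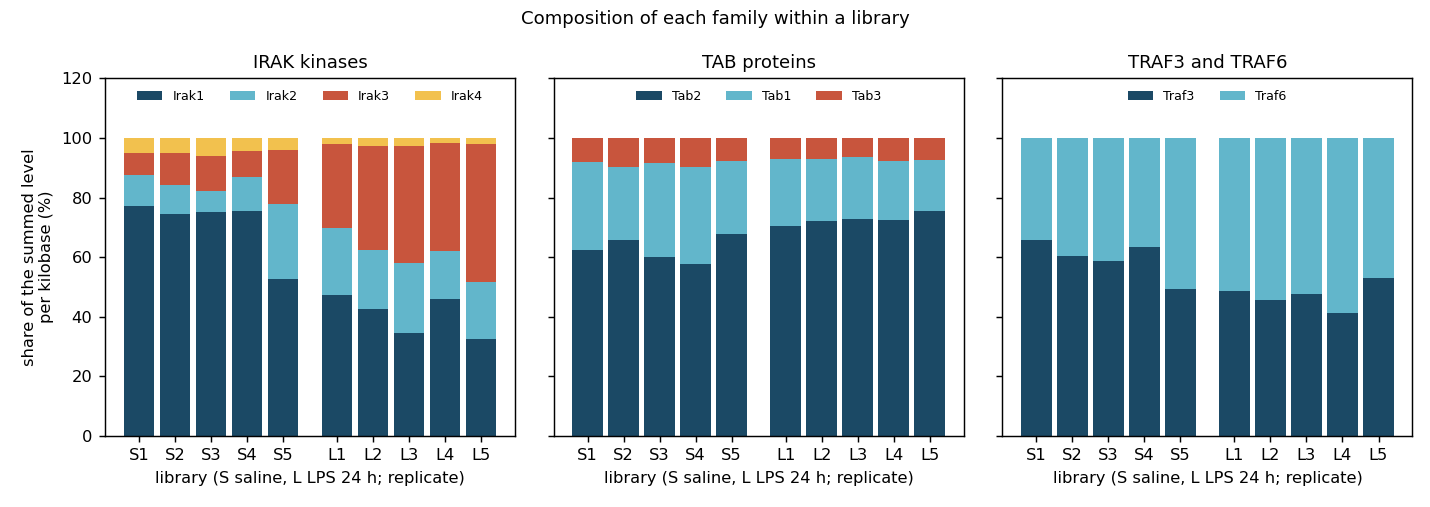
Share of each gene in the summed level per kilobase of its family (vertical axis, percent) in every library. The families are the IRAK proteins, the TAB proteins and the pair TRAF3 and TRAF6. Each bar is 1 library (S saline, L LPS, with the replicate number), and the Irak3 share is between 28.2% and 46.5% in LPS libraries against 7.67% to 18.2% in saline libraries.

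Macrophages and monocytes are the cells in which IRAK3 is best known. Among all tested genes 18.9% rose and 21.0% fell. Of 13 macrophage and monocyte markers, 3 rose and 5 fell (4 fell without saline replicate 5). Their summed level was 586 to 837 CPM in saline replicates 1 to 4, 749 CPM in saline replicate 5 and 495 to 730 CPM in LPS libraries. The neutrophil sum was higher in saline replicate 5 and in LPS libraries than in saline replicates 1 to 4, as given above. Endothelial and lymphocyte sums were lower in saline replicate 5 and in LPS libraries than in saline replicates 1 to 4. Of the 10 neutrophil markers Elane had 0 reads, and 4, Elane among them, were under 1 CPM in every library. So were 6 of the 9 lymphocyte markers. Fibroblast markers summed to 1273 to 1808 CPM over all libraries (2 of 8 fell), and lymphocyte markers to 3.30 to 4.18 CPM in saline replicates 1 to 4, 1.49 CPM in saline replicate 5 and 1.52 to 2.47 CPM in LPS libraries, where Cd4, the 1 gene of 9 tested, did not pass with all libraries (-0.73, adjusted p = 0.224, edgeR) and fell without saline replicate 5 (-1.01, adjusted p = 0.0137). The part of these cells in the changes of Irak2 and Irak3 was not tested.

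Traf6, the ubiquitin ligase of the complex (ENSMUSG00000027164, chromosome 2, 101678429 to 101701669, plus strand), rose by less than Irak2 and Irak3. Its levels were 18.3, 17.6, 18.9, 16.6 and 28.2 CPM in saline replicates 1 to 5 and 25.4, 27.5, 25.2, 26.6 and 26.9 CPM in LPS replicates 1 to 5. The LPS libraries lay within a narrow band, saline replicate 5 lay above all of them and the other saline libraries below. All libraries gave a 1.32-fold rise with a 95% interval of 1.08 to 1.61 (adjusted p = 0.0267, edgeR), and the fit without saline replicate 5 a 1.48-fold rise (log2 fold change 0.57 ± 0.10 SE, adjusted p = 0.000186). Leaving out any of saline replicates 1 to 4 took Traf6 above an adjusted p of 0.05 (adjusted p 0.0544 to 0.0754), as did scaling by upper quartile or total count (log2 fold changes 0.25 and 0.14).

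Traf3, the TRAF of the interferon arm (ENSMUSG00000021277, chromosome 12, 111166370 to 111267153, plus strand), had values in the opposite direction. It was at 32.6, 24.8, 25.0, 26.7 and 25.7 CPM in saline replicates 1 to 5 and at 22.3, 21.5, 21.2, 17.4 and 28.2 CPM in LPS replicates 1 to 5. Of the LPS libraries, replicate 5 alone lay within the saline range, and the others lay below it. The log2 fold change was -0.28 (95% interval -0.55 to -0.01, adjusted p = 0.0909, edgeR), -0.30 without saline replicate 5 (adjusted p = 0.0871) and -0.38 without LPS replicate 5 (adjusted p = 0.0177). It also passed with upper quartile and total count scaling, at -0.44 and -0.55.

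The ratio of Traf6 to Traf3 per kilobase was 0.616 ± 0.0818 in saline replicates 1 to 4 (SD, n = 4), 1.03 in saline replicate 5 and 1.13 ± 0.195 in LPS libraries (n = 5). The LPS libraries, from 0.889 to 1.42, lay above saline replicates 1 to 4, which reached 0.705.

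Tab1, the subunit that activates TAK1 (ENSMUSG00000022414, chromosome 15, 80133127 to 80161707, plus strand), was the member that fell. It was at 19.5, 13.5, 20.3, 21.6 and 16.1 CPM in saline replicates 1 to 5 and at 12.6, 14.2, 12.8, 13.8 and 12.9 CPM in LPS replicates 1 to 5. The LPS libraries were close together and overlapped the saline group only through saline replicate 2. Tab1 fell from a mean of 18.2 ± 3.31 to 13.3 ± 0.695 CPM (n = 5 per group, SD), to 0.729 of the saline level with a 95% interval of 0.601 to 0.883 (log2 fold change -0.46 ± 0.13 SE, adjusted p = 0.0118, edgeR). Its call and direction held in all 20 alternative fits, with log2 fold changes from -0.73 to -0.39, and its value without saline replicate 5 was -0.50 (adjusted p = 0.00747).

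Tab2, which binds ubiquitin chains and brings TAK1 to TRAF6 (ENSMUSG00000015755, chromosome 10, 7905653 to 7956230, minus strand), had values on the other side. Its levels were 75.4, 66.7, 69.8, 70.2 and 81.0 CPM in saline replicates 1 to 5 and 71.6, 88.5, 81.6, 91.7 and 104 CPM in LPS replicates 1 to 5. LPS replicate 1 lay within the saline range and the other LPS libraries lay above it. The log2 fold change was 0.27 ± 0.10 SE (95% interval 0.05 to 0.49, adjusted p = 0.0512, edgeR), and 0.31 without saline replicate 5 (adjusted p = 0.0252). It was also past the threshold without LPS replicate 1 or 3 (adjusted p = 0.0140 and 0.0414), with RLE scaling (0.30, adjusted p = 0.0342), with TMM scaling without the 20 most abundant genes (0.29, adjusted p = 0.0357) and with DESeq2 (adjusted p = 0.0252). With upper quartile scaling it was 0.11 (adjusted p = 0.381) and with total count scaling -0.0035.

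Tab3, a relative of Tab2 with the same chain-binding role (ENSMUSG00000035476, chromosome X, 85574022 to 85634469, plus strand), was at 10.1 to 12.7 CPM in saline and 7.74 to 11.1 CPM in LPS libraries, with overlap. Its log2 fold change was -0.22 (95% interval -0.51 to 0.08, adjusted p = 0.228, edgeR), and -0.24 without saline replicate 5 (adjusted p = 0.203). Map3k7, the gene of TAK1 itself (ENSMUSG00000028284, chromosome 4, 31964097 to 32023467, plus strand), was at 58.6 to 69.7 CPM in saline and 58.5 to 77.5 CPM in LPS libraries. The groups overlapped, and the log2 fold change was 0.14 (95% interval -0.07 to 0.36, adjusted p = 0.288, edgeR), and 0.18 without saline replicate 5 (adjusted p = 0.198). The interval leaves room for a rise of up to 1.28-fold in Map3k7.

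Within the TAB proteins, Tab1 made up 29.6% ± 3.66 of the level per kilobase in saline replicates 1 to 4 (SD, n = 4), 24.5% in saline replicate 5 and 20.3% ± 2.03 in LPS libraries (n = 5). The highest LPS share was 22.6% and the lowest saline share 24.4%, so the groups did not overlap. Tab2 went from 61.5% ± 3.45 and 67.7% to 72.5% ± 1.86, again without overlap. The ratio of Tab1 to Map3k7 was 0.440 to 0.662 in all saline libraries and 0.323 to 0.420 in LPS libraries. The ratio of Tab2 to Map3k7 overlapped between the groups, at 1.19 ± 0.0462 in saline and 1.30 ± 0.133 in LPS hearts (SD, n = 5 per group).

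**Figure D3:**
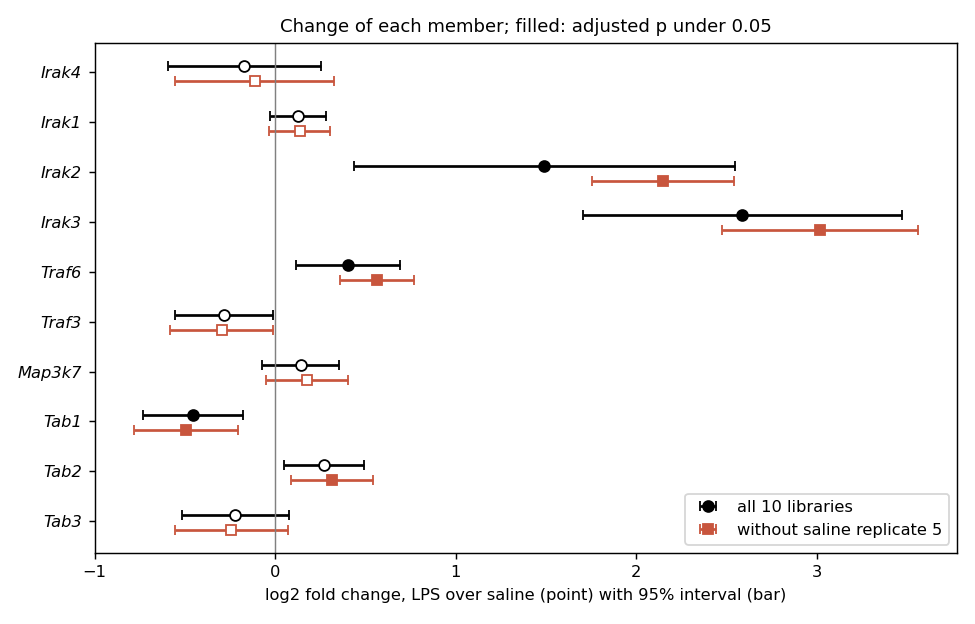
Log2 fold change of each member, LPS over saline (horizontal axis), with its 95% interval as a bar, from all 10 libraries (black circles) and without saline replicate 5 (red squares). Filled symbols have an adjusted p under 0.05; for Irak2 the interval without that library, 1.75 to 2.54, is narrower than the 0.44 to 2.55 with it.

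Per kilobase of gene length, Irak1 was the most abundant member in saline hearts at 16.3 ± 0.461 CPM per kilobase (SD, n = 5), followed by Tab2 at 11.8 ± 0.923 and Map3k7 at 9.97 ± 0.801. Tab1 at 5.42, Traf3 at 3.67, Irak2 at 3.23, Irak3 at 2.81 and Traf6 at 2.52 CPM per kilobase came next, and each of these overlapped its neighbour in this order. Without saline replicate 5 the last 3 were in the order Traf6 at 2.26, Irak3 at 2.09 and Irak2 at 2.05 CPM per kilobase. Tab3 at 1.64 and Irak4 at 1.14 CPM per kilobase were lowest and did not overlap each other. In LPS hearts Irak3 was in the second place, at 16.9 ± 5.51 CPM per kilobase, overlapping Irak1 at 17.7 ± 0.553 and Tab2 at 14.3 ± 1.96. Irak2 was in the fifth place at 9.05 CPM per kilobase, overlapping Map3k7, whose LPS libraries were at 9.10 to 12.1 CPM per kilobase. Tab1 at 3.95 CPM per kilobase lay below every LPS value of Irak2, and Traf6 at 3.34 overlapped Traf3 at 3.02. The order by the authors' FPKM was the same in both groups.

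Saline replicate 5 did not move toward LPS to the same degree in all members. On the log2 scale Irak2 in that library lay 92.6% of the way from the mean of saline replicates 1 to 4 to the LPS mean. Irak3 lay at 49.6%, Traf6 118%, Map3k7 93.8%, Tab2 67.0%, Tab3 49.5%, Tab1 41.2%, Traf3 25.7% and Irak1 25.0%. Irak4 lay on the side away from LPS (-160%), at 6.54 CPM against up to 6.28 CPM in saline replicates 1 to 4. Where the gap between the means is small, as for Map3k7 (5.97 to 6.13 log2 CPM), the percentage says little. Map3k7 at 69.7 CPM and Tab2 at 81.0 CPM were above the range of saline replicates 1 to 4, which reached 68.0 and 75.4 CPM, although the groups of both members overlapped. Against the mean of the other saline libraries it was 3.88-fold for Irak2, 2.74-fold for Irak3 and 1.58-fold for Traf6. Irak1, at 78.1 CPM, and Traf3, at 25.7 CPM, lay within the range of the other saline libraries. The labels do not tell this library from the others of its group.

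Other genes of the pathway were taken from lists chosen with earlier results of these data known. Of all tested genes 18.9% rose and 21.0% fell, 39.9% in all (21.0% and 22.9% without saline replicate 5). The share that passed was 61.9% of upstream genes, 46.2% of ubiquitin partners and 66.7% of inhibitors. It was 68.8% of downstream kinases and related genes and 66.7% of other TRAF proteins and TRAF3 partners. Upstream receptors and adaptors rose in 11 and fell in 2 of 21 tested (median log2 fold change 0.86), and 14 rose and 3 fell without saline replicate 5. The falling genes numbered 1 when saline replicate 1, saline replicate 2 or LPS replicate 4 was left out. Tlr3, the receptor of double-stranded RNA, went up from 22.3 ± 21.3 to 228 ± 75.0 CPM (n = 5 per group, SD, log2 fold change 3.36, adjusted p = 0.00238, edgeR), with 60.1 CPM in saline replicate 5. The rise of Tlr3 was 10.3-fold with that library and 17.8-fold without it. Tlr2, the receptor of bacterial lipoproteins, rose from 21.1 ± 36.2 to 183 ± 22.1 CPM (adjusted p = 0.0379), with 85.7 CPM in saline replicate 5 alone. The call of Tlr2 was lost in every fit that left out 1 library other than saline replicate 5 (adjusted p up to 0.0763), and the rise was 8.71-fold with that library and 37.4-fold without it (adjusted p = 4e-13). Tlr13, a receptor of bacterial ribosomal RNA in mice, fell (-0.98, adjusted p = 0.0166), which no longer passed when saline replicate 1, saline replicate 2 or LPS replicate 4 was left out (adjusted p up to 0.0562).

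Among 13 tested partners of the ubiquitin step, 5 rose and 1 fell, with a median of 0.15. The share that passed, 46.2%, is near the 39.9% of all tested genes. Without saline replicate 5 the counts were 6 and 1, and without LPS replicate 5 the falling genes numbered 2. Tifa, an adaptor that binds TRAF6, rose from 11.2 ± 15.2 to 147 ± 41.8 CPM (log2 fold change 3.71, adjusted p = 0.00615, edgeR, n = 5 per group). Birc3, a ubiquitin ligase of the TRAF complexes, rose from 33.1 ± 43.0 to 198 ± 17.9 CPM (2.59, adjusted p = 0.0204). Without saline replicate 5 they were 33.1-fold and 14.4-fold higher in LPS hearts. Tifab, an inhibitory relative of Tifa, fell (-2.14, adjusted p = 0.0074) from 2.68 to 0.599 CPM. It did not pass with limma voom (-1.91, adjusted p = 0.0685), and a filter of 1 CPM in 5 libraries left it untested. Ube2n, the conjugating enzyme that TRAF6 uses, averaged 72.8 CPM after saline and 80.8 CPM after LPS (adjusted p = 0.228).

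Inhibitors and deubiquitinases rose in 13 and fell in 1 of 21, with a median log2 fold change of 1.09. Nlrc5, best known as the activator of MHC class I genes, rose from 9.74 ± 8.33 to 178 ± 24.7 CPM (log2 fold change 4.19, adjusted p = 0.000478, edgeR, n = 5 per group). Saline replicate 5 was at 23.4 CPM, and the rise of Nlrc5 was 18.3-fold with it and 28.2-fold without it. Tnfaip3, the ubiquitin-editing enzyme A20, rose (3.93, adjusted p = 0.024) and was at 448 ± 94.9 CPM in LPS hearts, 123 CPM in saline replicate 5 and 6.19 CPM on average in saline replicates 1 to 4. Its rise was 15.2-fold with saline replicate 5 and 72.4-fold without it, and without saline replicate 2 it missed the threshold (adjusted p = 0.0558, edgeR). Sigirr, a receptor that restrains interleukin-1 and Toll-like receptor signalling, was the falling member, from 5.54 ± 2.19 to 0.661 ± 0.260 CPM (-3.05, adjusted p = 1.21e-05). Tollip, which holds IRAK1 in check, averaged 69.8 CPM after saline and 69.9 CPM after LPS (adjusted p = 0.981).

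Kinases downstream of TAK1 and related genes went both ways, with 7 rising and 4 falling of 16 and a median of 0.05. This list also holds the IKK subunit Ikbkg and the related kinases Map3k3, Map3k14, Tbk1 and Ikbke. Its counts are therefore not of kinases downstream of TAK1 alone. Of all tested genes 18.9% rose and 21.0% fell. Map3k8, the kinase TPL2 that opens the ERK branch, rose from 7.90 ± 7.82 to 61.4 ± 15.5 CPM (log2 fold change 2.96, adjusted p = 0.00349, edgeR, n = 5 per group), and 13.8-fold without saline replicate 5. Ikbke, an IKK-related kinase, rose from 1.25 ± 0.490 to 8.78 ± 4.33 CPM (2.82, adjusted p = 4.73e-05), and Mapk11, which encodes p38 beta, fell (-1.41, adjusted p = 0.000608). Other TRAF proteins and TRAF3 partners rose in 5 and fell in 3 of 12, with a median of 0.37, and 6 rose and 3 fell without saline replicate 5. Leaving out any of saline replicates 1 to 3, or any LPS library other than replicate 3, left 1 falling, as did RLE scaling. The receptor Cd40 and Traf1 rose (log2 fold changes 4.13 and 2.51, adjusted p = 0.00385 and 0.000332), and Traf3ip1 fell (-0.99, adjusted p = 0.000665). Cd40 was 45.6-fold and Traf1 8.39-fold higher in LPS hearts without saline replicate 5.

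**Figure D4:**
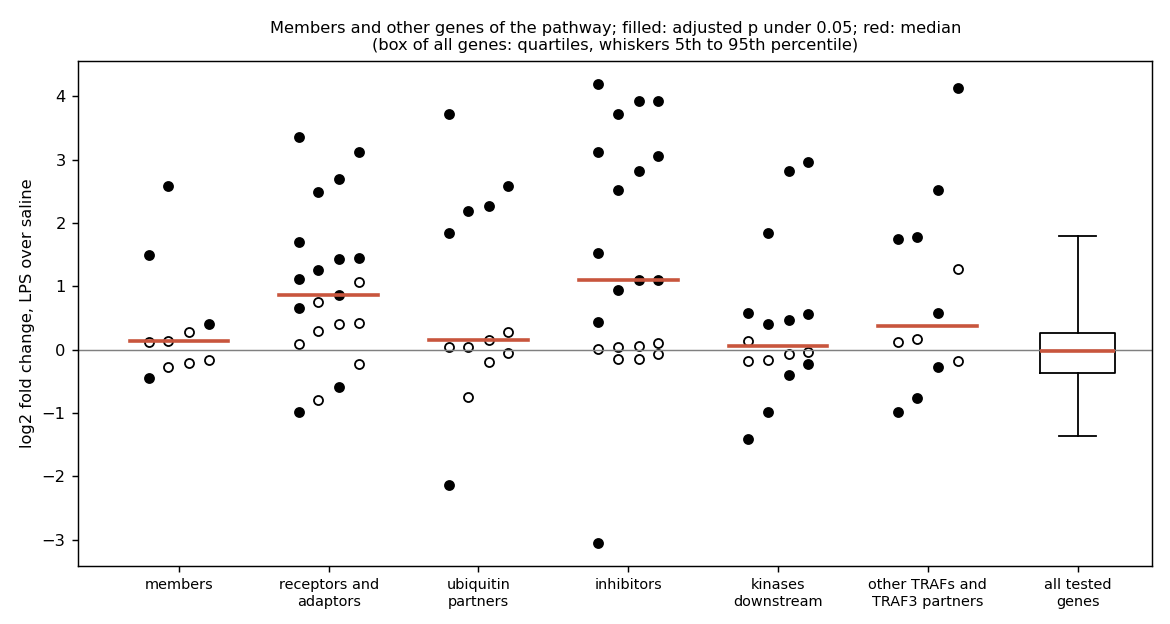
Log2 fold changes, LPS over saline (vertical axis), of the members and of 5 lists of other pathway genes (points, filled where the adjusted p is under 0.05, red line for the median). The box shows all 13864 tested genes; the members' median is 0.13, against 0.86 for receptors and adaptors and 1.09 for inhibitors.

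In the authors' deposited table of Reactome terms, 6 terms name TRAF6 or TAK1. In the authors' deposited table the term for TRAF6-mediated induction of NF-kappaB and MAP kinases by endosomal receptors had 47 differential genes of 77, 33 up and 14 down (adjusted p = 0.000709). The term for NF-kappaB activation by TAK1 through the IKK complex had 18 of 28, 16 up and 2 down, in the authors' deposited table (adjusted p = 0.0393). These are 61% and 64.3% of the genes of each term, beside 36.8% of all background genes in the authors' deposited table. The other 4 terms had adjusted p between 0.0547 and 0.87 there. The authors' deposited table lists Irak2, Irak3, Traf6 and Tab2 among genes that went up and Tab1 among those that went down, while Tab2 missed the threshold in the fit of all libraries (adjusted p = 0.0512, edgeR). A further table of theirs with 40 genes of the TLR4 pathway holds 7 of the members and leaves out Irak2, Irak3 and Tab3.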

How the data were processed

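Heart RNA was prepared with an Illumina TruSeq kit, per the labels' protocols. The authors deposited read counts per gene for 54532 genes, whose coordinates match GENCODE M21 on GRCm38 in 53499 cases and for all 10 members, although the submitters' processing notes name mm9 and Bowtie 0.12.2 without a role. The counting tool and strand setting were not stated. The authors' deposited FPKM columns were used only to check the order of levels, and the p-value columns of their deposited Reactome table are quoted as theirs. In 2 further tables the 10 LPS columns are named for 3 h while the labels give 24 h, and these columns were not used.

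Counts were fitted with edgeR 4.0.16 in R 4.3.3 (filterByExpr with minimum count 10, TMM scaling, robust quasi-likelihood F-test, Benjamini-Hochberg over 13864 genes, threshold 0.05). The procedure was tested on simulated data in which no library was made to stand apart, so a case like saline replicate 5 was not covered. Standard errors and 95% intervals come from the F statistic. CPM use TMM-scaled library sizes. "Rose" and "fell" mean past the threshold. Levels between genes are CPM per kilobase of the table's gene length, over all isoforms. Alternatives were other scalings and filters, DESeq2 1.42.0, limma 3.58.1 voom, a block for the replicate number and each library left out. The members and lists were chosen with earlier results of these data known. Named pathway genes are the 2 largest rises and the largest fall past the threshold of each list, with Ube2n and Tollip added after their values were seen. The p-values set each group difference against the spread between these 10 mice, which was estimated with information shared over all genes.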

Additional observations from a re-analysis of the deposited data

Results flagged for a closer look

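A library was marked where its gap to the next one, divided by the range of its group of 5, was above 0.71. Chance marks about 1 in 20 groups, and 5 of the 20 groups of member values were marked. The members were measured in the same 10 libraries, so the marks are not independent and their number is no test. Saline replicate 5 was the highest of its group for Irak2 at 35.1 CPM, for Irak3 at 21.0 CPM and for Traf6 at 28.2 CPM. Saline replicate 1 was the highest for Traf3 at 32.6 CPM, and saline replicate 4 for Tab3 at 12.7 CPM. No LPS library was marked for any member.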

How the results depend on the processing

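Irak3 and Tab1 kept their direction and their call in all 20 alternative fits, and Irak4 stayed below the threshold in all of them. Total count scaling gave 1711 genes higher and 5774 lower in LPS hearts, and upper quartile scaling 4407 lower, against 2617 and 2916 with TMM. These scalings moved the median of all genes by -0.27 and -0.16 on the log2 scale, and rising genes were 22.9% and 31.1% of calls, against 50.7% with RLE scaling. Under both scalings 3 members fell (Tab1, Traf3 and Tab3), and Irak1 had log2 fold changes of -0.15 and -0.032, Map3k7 -0.14 and -0.016. Tab2 was at -0.0035 with total counts. With DESeq2 5 members rose, Irak1 (adjusted p = 0.0386) and Tab2 (adjusted p = 0.0252) among them. Leaving out 1 library gave 1 to 4 rising and 1 to 2 falling members. Without a filter on low counts Irak2 lost its call (adjusted p = 0.0568).

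Same-numbered libraries had correlations between -0.10 and 0.24, and number 3 alone correlated best with its own number. No pairing by replicate number was seen in these values. With 5 libraries per group and saline replicate 5 standing apart, they cannot show that there was none. With the replicate block 2582 genes rose and 2836 fell, and the calls of the members did not change.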
